A study of Mus musculus with 16 samples.

Results

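A set of 37 proliferation genes, which act in DNA replication and mitosis, was examined by gene symbol among the 21923 gene identifiers of an RNA-seq table from mouse gastrocnemius, a muscle of the calf. The genes were taken from a list of names and not by a threshold on their values, and all 37 were found in the table and passed the filter on low counts. Poly(A) RNA of 16 mice was sequenced as 1 library per mouse, with 4 libraries in each of 4 groups. The normal control mice (NOR) received PBS in place of tumor cells, and the mice with cancer cachexia (CAC), a wasting of muscle and fat in tumor carriers, were injected under the skin with tumor cells on day 0. The amiloride-treated mice (AM) carried the same tumors and received amiloride, a diuretic that blocks sodium channels and sodium-proton exchangers, at 2 mg/kg daily from day 9. The Rab27 knock-down mice (KD) carried tumors grown from cells in which lentiviral shRNA had lowered Rab27a and Rab27b, small GTPases of exosome release, so the knock-down lay in the tumor cells and not in the muscle. The NOR, CAC and KD mice received PBS daily into the abdomen from day 9, in place of amiloride. Mice were 6 to 8 weeks old at purchase, and all muscles were collected on day 30. The label of replicates 1 and 2 in every group is C57BL/6, the strain in which LLC cells from a Lewis lung carcinoma were grown, and that of replicates 3 and 4 is BALB/c, in which CT26 cells from a colon carcinoma were grown. Effects of the strain and of the tumor line cannot be told apart.

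Cells that divide copy their DNA once and then part the copies. The helicase of the Mcm2 to Mcm7 proteins is loaded before replication begins, cyclins and their kinases drive the steps from one phase to the next, and the spindle, the kinetochores and the condensins move the chromosomes in mitosis. Skeletal muscle fibres are long-lived cells that have left the cell cycle for good, so in muscle these genes are mostly used by other cells, such as satellite cells, fibroblasts, endothelial cells and blood or lymphoid cells. The RNA came from whole muscle, and fewer cells of a type and less RNA per cell cannot be told apart in such data.

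Libraries held 35913190 to 61032708 counts, of which the 37 genes together took 7398 (KD 2) to 20619 (CAC 3). CPM stands for counts scaled to an equal library size, with the TMM scaling of edgeR. In 5 libraries (NOR 1, CAC 1, CAC 4, KD 2 and KD 3) the markers of B and T cells were near 0. The summed level of 10 B cell genes was 0.8001 to 3.96 CPM there and 44.8 to 567 CPM in the other 11 libraries, and that of 10 T cell genes was 1.10 to 2.25 CPM against 20.1 to 223 CPM. Cd3e, a defining chain of the T cell receptor complex, had no count in any of the 5, and up to 4 of the 10 B cell genes and 2 to 5 of the 10 T cell genes were at 0 in each, while none was at 0 in the other 11. All 4 AM libraries held these markers, and no other group did throughout. CAC 3 had the lowest summed level of 6 muscle fibre genes (52180 CPM). CAC 4 (78010 CPM) and KD 1 (94360 CPM) came next, and the highest level was 167900 CPM. The level of Nnt, a mitochondrial gene whose activity differs between inbred mouse strains, was high in CAC 4, AM 1, AM 3 and KD 1 (44.0 to 112 CPM) and low in the other 12 libraries (5.73 to 21.5 CPM), which did not follow the labelled strain.

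Per length of transcript, most of the 37 genes were weakly expressed in these muscles. The mean FPKM (fragments per kilobase of transcript, scaled to library size) over the 16 libraries had a median of 1.304 across the genes, and 15 genes were under 1 FPKM. Ckm, the muscle creatine kinase, stood at 12860 FPKM in comparison. Pcna, the sliding clamp of DNA polymerase that also serves in DNA repair, was the highest of the genes at 28.9 FPKM. After it came the helicase subunits Mcm7 (17.0 FPKM) and Mcm4 (9.44 FPKM), cyclin D1 (Ccnd1, 7.39 FPKM), which responds to growth factors in G1, and the condensin subunit Ncapd2 (6.77 FPKM). The proliferation marker Mki67, whose protein coats mitotic chromosomes, had a mean of 2.12 FPKM, and Bub1, a kinase of the spindle checkpoint, was the lowest at 0.121 FPKM. In counts, the median over libraries ran from 14.5 for Bub1 to 2040.5 for Pcna, and 7 genes had a median under 50 counts. Bub1 had no count in CAC 1 and KD 3, which allows up to 0.0688 and 0.0558 CPM, and the condensin subunit Ncapg had none in KD 3, with the same limit of 0.0558 CPM. These limits stand for 3 counts and cover counting error only.

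Most genes with mitotic roles varied with Mki67 from library to library, with Tpx2, Aurka, Ncapd2 and Bub1b as exceptions (Pearson's r of log2 CPM 0.38, 0.42, 0.51 and 0.67). Mki67 was at 4.50, 12.2, 7.00 and 10.7 CPM in NOR 1 to 4. In the CAC libraries it was at 1.97, 4.12, 24.25 and 2.92 CPM. In the AM libraries it was at 11.04, 14.1, 22.0 and 6.54 CPM, and in the KD libraries at 30.0, 1.71, 1.06 and 16.1 CPM. CAC 3, KD 1 and AM 3 were thus the highest of their groups, CAC 1, CAC 4, KD 2 and KD 3 were the 4 lowest of all libraries, and no group lay apart from another.

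Top2a, the topoisomerase that untangles the copied chromosomes, had the same order within CAC and KD. It was at 3.18, 6.52, 4.34 and 6.48 CPM in NOR, and at 1.72, 2.84, 14.6 and 1.72 CPM in CAC. Its levels were 4.78, 6.94, 7.80 and 3.67 CPM in AM, and 13.1, 1.465, 0.633 and 8.24 CPM in KD. The groups overlapped throughout, with CAC 3 and KD 1 on top.

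Ccna2, the cyclin of S phase and early mitosis, was at 2.54, 3.54, 2.10 and 3.54 CPM in NOR and at 0.917, 1.19, 6.94 and 1.185 CPM in CAC. It stood at 2.72, 3.53, 5.50 and 2.79 CPM in AM and at 8.005, 1.04, 0.744 and 5.08 CPM in KD. All CAC libraries but CAC 3 lay below every NOR and every AM library. Cdk1, the kinase that starts mitosis, was at 1.398, 1.24, 0.867 and 1.60 CPM in NOR and at 0.183, 0.6045, 2.76 and 0.474 CPM in CAC. In AM it was at 1.90, 1.58, 1.90 and 1.35 CPM, and in KD at 3.45, 0.497, 0.447 and 2.605 CPM. The same 3 CAC libraries were again below all NOR and all AM libraries. Its partner cyclin B1 (Ccnb1) was at 0.595, 1.74, 1.33 and 1.08 CPM in NOR and at 0.275, 0.672, 3.87 and 0.253 CPM in CAC. It was at 1.81, 1.38, 2.72 and 0.944 CPM in AM and at 3.68, 0.372, 0.149 and 2.24 CPM in KD. For Ccnb1 the ranges of NOR and CAC overlapped at both ends, since NOR 1 was below CAC 2.

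Some genes of DNA replication were steadier, and others were not. Mcm2 was at 17.7, 19.1, 18.5 and 17.4 CPM in NOR, at 11.9, 14.5, 21.3 and 13.2 CPM in CAC, at 24.0, 18.4, 19.0 and 18.8 CPM in AM, and at 25.5, 11.4, 15.2 and 22.05 CPM in KD. The NOR libraries were almost equal, and 3 of the 4 CAC libraries lay below all of them. Mcm5, of the same helicase, was at 4.01, 10.1, 9.84 and 9.78 CPM in NOR, at 5.43, 5.57, 18.9 and 6.59 CPM in CAC, at 15.9, 8.86, 9.825 and 7.70 CPM in AM, and at 20.6, 3.75, 3.26 and 10.9 CPM in KD. It followed the mitotic genes more closely than Mcm2 did, with NOR 1 as the lowest NOR library. Rrm2, the regulated subunit of ribonucleotide reductase, which supplies the building blocks of DNA, was at 2.485, 3.41, 3.05 and 3.66 CPM in NOR, at 1.58, 2.33, 8.01 and 1.80 CPM in CAC, at 3.45, 3.53, 4.72 and 1.97 CPM in AM, and at 6.20, 1.17, 1.53 and 5.96 CPM in KD. Pcna was at 36.45, 44.4, 44.3 and 44.9 CPM in NOR, at 40.5, 42.4, 55.3 and 43.1 CPM in CAC, at 45.8, 44.3, 42.4 and 35.4 CPM in AM, and at 44.1, 48.0, 36.7 and 45.2 CPM in KD. Pcna differed least among the 37 genes over the 16 libraries, and its highest level was 1.56 times its lowest, whereas that of Mki67 was 28.3 times its lowest.

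**Figure D1:**
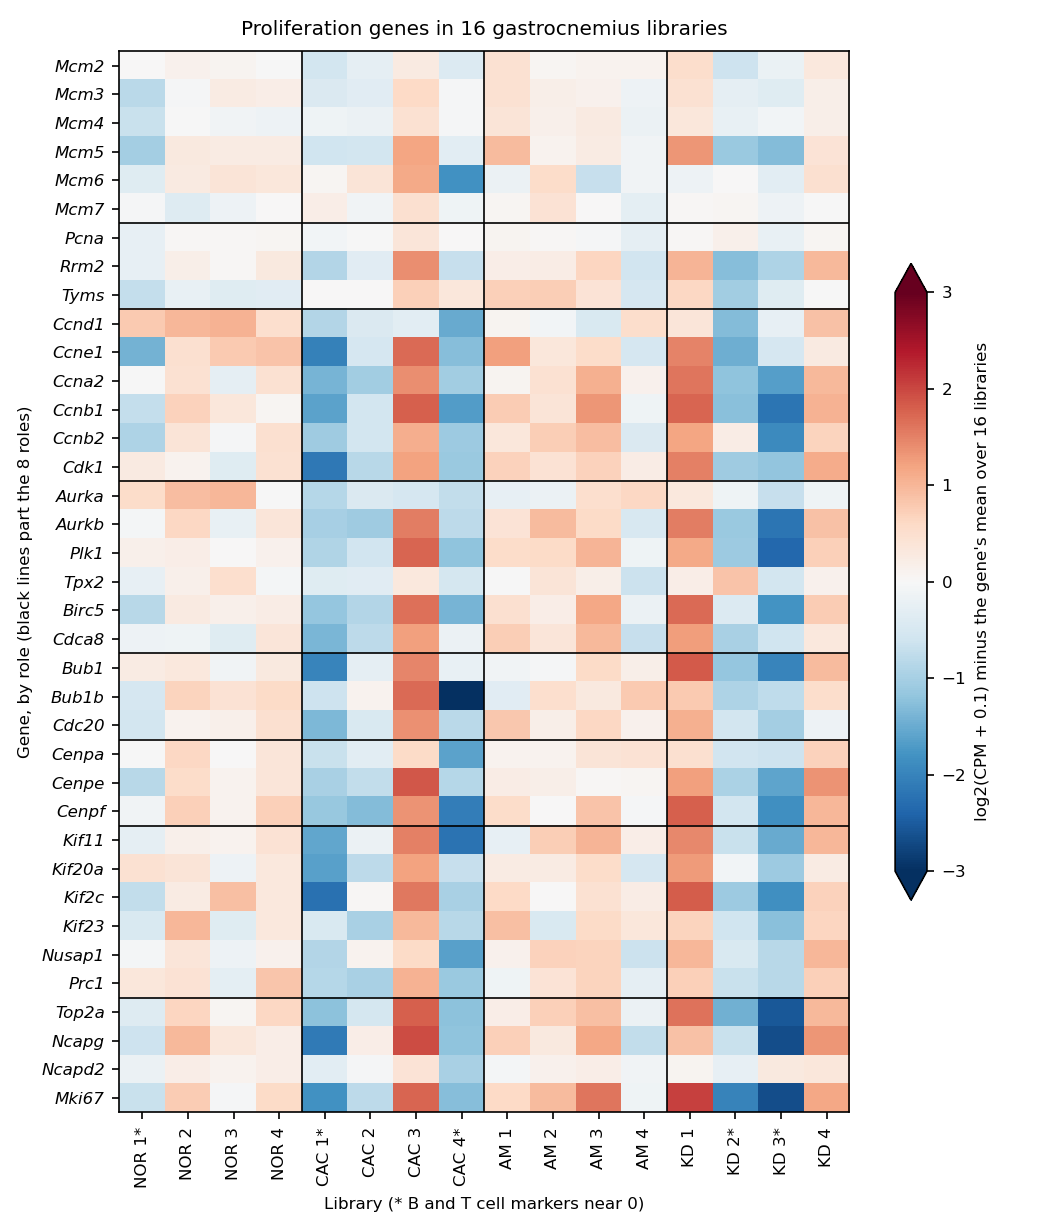
Level of each of the 37 genes (lines, by role) in each of the 16 libraries (columns, by group), as log2(CPM + 0.1) minus the gene's mean over the libraries. CAC 3 was the highest CAC library for 36 of the 37 genes, and the 5 libraries marked with a star, whose B and T cell markers were near 0, are blue for most genes.

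CAC 3 was the highest of its group for 36 of the 37 genes, the exception being Aurka, and KD 1 was the highest of its group for 27 genes. The lowest library was CAC 1 for 18 genes and CAC 4 for 15, and KD 3 for 28 genes and KD 2 for 9. KD 3 was also the only library with no count of the Y-linked gene Ddx3y (46.8 to 89.7 CPM in the others). The study names male mice in its methods but BALB/c mice of both sexes in a supplementary legend. The labels give no sex per mouse, and the part of sex in the levels was not tested. In NOR the lowest was NOR 1 for 24 genes, and in AM it was AM 4 for 25 genes. The SD of log2 CPM within a group had a median over the 37 genes of 0.37 among the NOR mice, 1.20 among the CAC mice, 0.46 with amiloride and 1.03 with the knock-down tumors. Over all genes it was 0.22, 0.29, 0.26 and 0.37.

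The low libraries were largely those without lymphoid markers. Both KD libraries of that kind lay below both other KD libraries for 32 of the 37 genes, and both such CAC libraries lay below CAC 2 and CAC 3 for 24 genes. NOR 1 was below the other 3 NOR libraries for 24 genes. The share of all genes in the same orders is not given here, so these counts are not set against genes at large. The mean log2 CPM of the 37 genes was 0.29 to 1.27 in the 5 libraries and 1.12 to 2.71 in the other 11. The order of the levels was not the same as that of these markers in every library. CAC 2, with lymphoid markers present, held 4.12 CPM of Mki67, less than NOR 1 with 4.50 CPM, and AM 3 had the lowest B cell marker level of the 11 libraries, 44.8 CPM, with the highest Mki67 of the AM libraries. The part of lymphoid cells in the levels of the 37 genes was not tested beyond the fits without these libraries and those with a lymphoid score as a covariate, whose values are given with the comparisons.

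**Figure D2:**
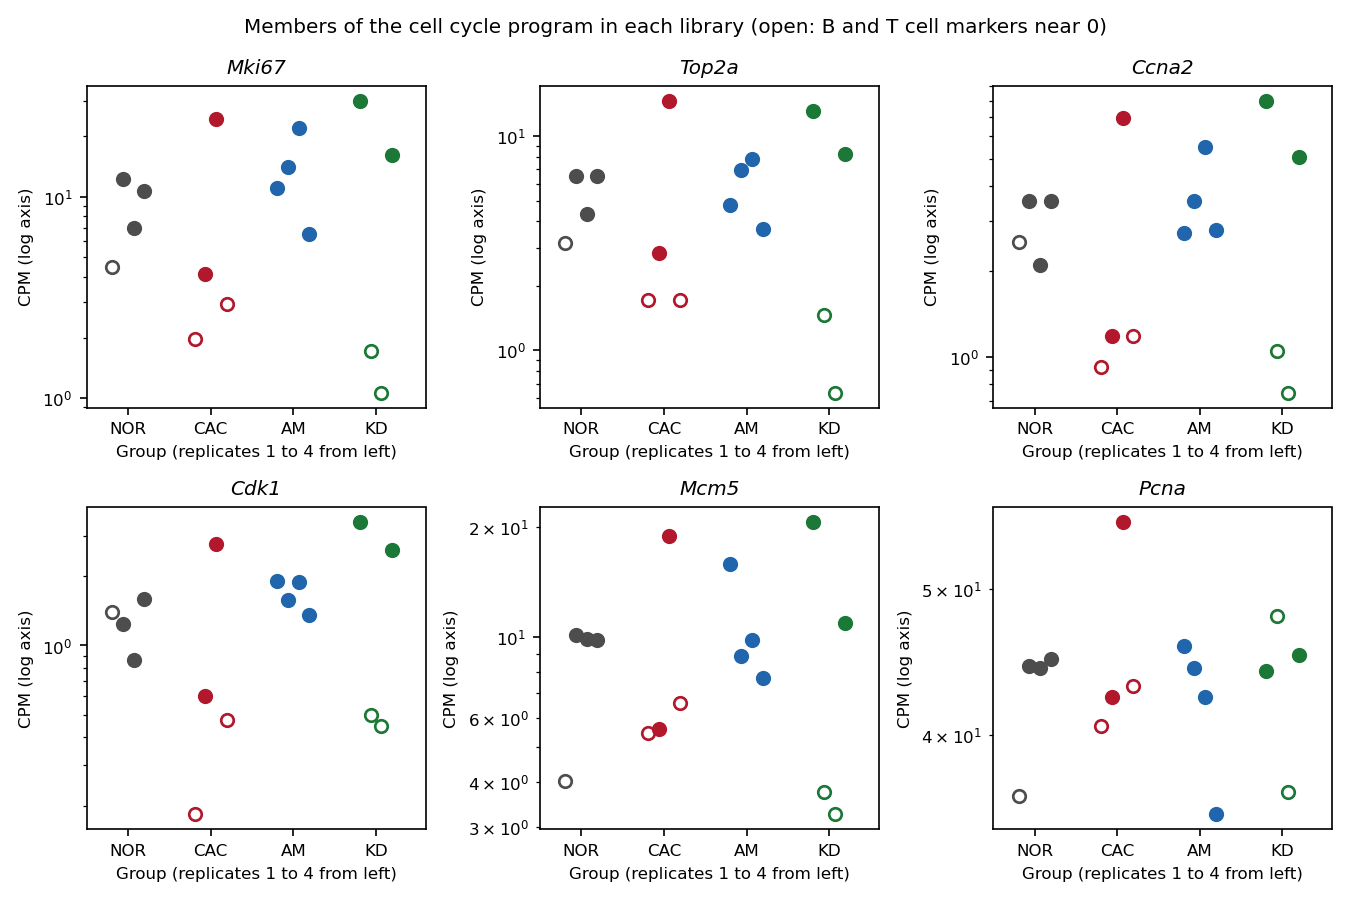
CPM of Mki67, Top2a, Ccna2, Cdk1, Mcm5 and Pcna in each library on a log axis, with replicates 1 to 4 of each group from left to right and open circles for the 5 libraries whose B and T cell markers were near 0. Mki67 ran from 1.06 CPM (KD 3) to 30.0 CPM (KD 1), whereas Pcna stayed between 35.4 and 55.3 CPM.

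The likeness of the genes was measured by Pearson's r of log2 CPM over the 16 libraries, as a description, since all genes share the libraries and their cell makeup. Of the other 36 genes, 24 had an r of at least 0.8 with Mki67, and the median was 0.86. Among the 13209 genes with a mean of at least 1 CPM, the 5 most like Mki67 were Top2a (0.98), Ccnb1 (0.97), Ccna2 (0.97), Aspm (0.96), which organizes the spindle poles, and Aurkb (0.96), the kinase of the chromosomal passenger complex. In the 11 libraries with lymphoid markers these values were 0.95, 0.94, 0.97, 0.92 and 0.95, but over the 36 genes the count with an r of at least 0.8 was 16 and the median 0.775, and Aurka and Ccnd1 were at -0.10 and -0.14. The lowest r with Mki67 belonged to Mcm7 (0.26), followed by Mcm6 (0.35), the spindle factor Tpx2 (0.38), Aurka (0.42), Pcna and Ccnd1 (both 0.47) and Ncapd2 (0.51). The mitotic kinase Aurka and the G1 cyclin Ccnd1 had an r of 0.72 with each other. This was not particular to the pair, since Cenpa was at 0.74, Mcm2 at 0.68 and Bub1b at 0.63 with Ccnd1. Differences between the groups enter these values too. The 5 genes most like Ccnd1 were Mtss1, Plxna1 and Mkl1 (0.92 each), Tet1 (0.91) and Btbd11 (0.90). In the 11 libraries with lymphoid markers they were at 0.85, 0.85, 0.84, 0.73 and 0.75.

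**Figure D3:**
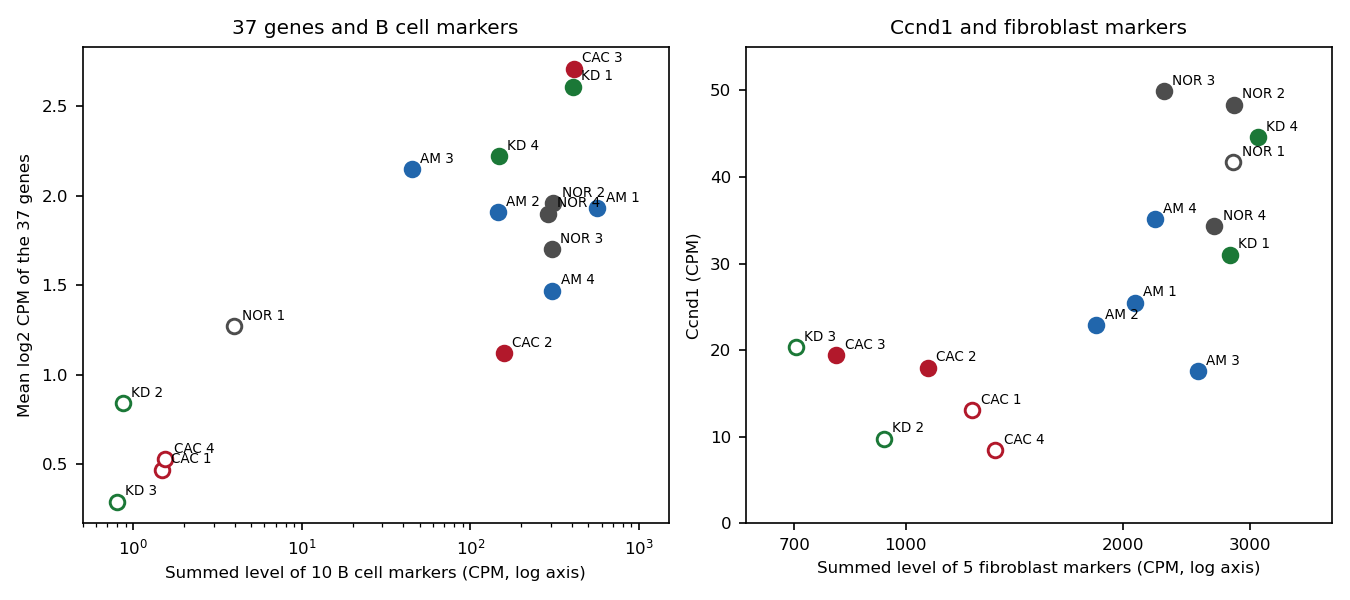
Left, mean log2 CPM of the 37 genes against the summed CPM of 10 B cell markers (log axis), and right, Ccnd1 in CPM against the summed CPM of 5 fibroblast markers (log axis), with 1 point per library and open circles for the 5 libraries whose B and T cell markers were near 0. The open circles sit at mean log2 CPM of 0.29 to 1.27, and the 4 CAC libraries sit at the low end for Ccnd1 with fibroblast marker sums of 801 to 1331 CPM. KD 3 had the lowest sum (704 CPM) with Ccnd1 above every CAC library.

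Genes that rise in mitosis often carry 2 short promoter elements. One is the CHR (cell cycle genes homology region), bound by the DREAM and MuvB complexes, and the other is the CCAAT box, bound by NF-Y, while many replication genes carry E2F sites. The following promoter stretches show how these letters are laid out in Mki67 and the genes that moved with it, and in Aurka, which did not. Each stretch is the 150 bases before the RefSeq transcription start (GRCm38.p6), 5′ to 3′ on the strand of the gene, which is the minus strand for all 6. Capitals mark CHR letters (TTNGAA, where N is T or C), CCAAT boxes (CCAAT) and E2F letters (TTNNCGC, where each N is C or G), each on either strand. The stretches lie at chr7:135716380-135716529 for Mki67, chr11:99024190-99024339 for Top2a, chr10:69352913-69353062 for Cdk1, chr13:100786487-100786636 for Ccnb1, chr9:70421555-70421704 for Ccnb2 and chr2:172370571-172370720 for Aurka.
Mki67: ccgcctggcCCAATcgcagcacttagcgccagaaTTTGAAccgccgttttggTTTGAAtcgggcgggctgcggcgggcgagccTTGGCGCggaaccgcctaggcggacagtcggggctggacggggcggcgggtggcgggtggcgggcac
Top2a: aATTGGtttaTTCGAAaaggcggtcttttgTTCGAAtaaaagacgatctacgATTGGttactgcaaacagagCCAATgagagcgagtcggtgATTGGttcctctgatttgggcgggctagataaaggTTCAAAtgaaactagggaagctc
Cdk1: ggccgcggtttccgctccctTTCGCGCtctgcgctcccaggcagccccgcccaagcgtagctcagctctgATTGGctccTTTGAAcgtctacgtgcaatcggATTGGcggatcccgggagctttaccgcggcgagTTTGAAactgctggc
Ccnb1: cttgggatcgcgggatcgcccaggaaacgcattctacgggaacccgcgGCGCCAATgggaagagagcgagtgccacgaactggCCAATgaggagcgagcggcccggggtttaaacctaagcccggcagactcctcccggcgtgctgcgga
Ccnb2: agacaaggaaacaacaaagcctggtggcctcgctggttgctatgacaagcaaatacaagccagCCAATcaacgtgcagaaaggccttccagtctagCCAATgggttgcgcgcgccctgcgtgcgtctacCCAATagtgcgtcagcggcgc
Aurka: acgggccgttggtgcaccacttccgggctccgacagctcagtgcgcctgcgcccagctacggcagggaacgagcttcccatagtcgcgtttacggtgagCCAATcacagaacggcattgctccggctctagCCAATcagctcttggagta

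In these stretches the Mki67 promoter held 2 CHR matches, 1 CCAAT box and 1 E2F match, and that of Cdk1 held 2 CHR matches, 2 CCAAT boxes and 1 E2F match. The Top2a stretch held 3 CHR matches and 4 CCAAT boxes. TTCGAA reads the same on both strands and was counted once. The stretches of Ccnb1, Ccnb2 and Aurka held 2, 3 and 2 CCAAT boxes and no CHR match, and the E2F match of Ccnb1 overlaps one of its CCAAT boxes. In a wider window, from 250 bases before to 50 bases after the start, sequences were at hand for 31 of the 37 genes, and Ccnd1, Ccna2, Aurkb, Tpx2, Kif20a and Mcm4 are named only. Of the 31, 20 held a CHR match (64.5%), compared with 21.7% of 27025 genes with such a window. A CCAAT box was found in 26 (83.9%, against 41.1%), an E2F match in 10 (32.3%, against 10.9%), and both CHR and CCAAT in 19 (61.3%, against 8.61%). Tyms, Ccne1, Birc5 and Nusap1 held none of the 3 elements (12.9%, against 41.8%). In that window Aurka and Ccnb2 also held CHR matches, so that these letters were present in a gene unlike Mki67 in its levels. A match in these windows is a description of the letters and says nothing about binding.

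The first comparison asked how tumor-bearing muscle differed from normal muscle. Ccnd1 and Aurka were lower in the muscle of CAC mice than in that of NOR mice, and the other 35 of the 37 genes did not pass the test. A gene was called at an FDR of at most 0.05 (Benjamini-Hochberg, over all genes tested) and a fold change of at least 1.5 in either direction in edgeR's quasi-likelihood test. Over all genes tested, 9.45% were called, so that 2 of 37 was not more than the share among genes at large. By direction the background was 5.13% lower and 4.32% higher. The estimates were higher in CAC for 19 genes and lower for 18, with a median log2 fold change of 0.01, the same as over all genes. The split depended on the fit, with 5 higher and 32 lower both with the replicate number as a block (median -0.56) and in limma-voom (median -0.58).

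Ccnd1 lies at chr7:144929931-144939925 on the minus strand (GRCm38). It was at 41.75, 48.4, 49.9 and 34.3 CPM in NOR 1 to 4. In CAC 1 to 4 it was at 13.05, 18.0, 19.5 and 8.47 CPM. Every CAC library thus lay below every NOR library. The means were 43.6 ± 7.14 and 14.7 ± 5.00 CPM (SD, n = 4 each), a ratio of 0.339. The log2 fold change was -1.56 (SE 0.26, 95% interval -2.17 to -0.96, edgeR FDR 0.00924). With 4 mice against 4, the two-sided exact permutation test of CPM gave p = 0.0286, the smallest it can give. The difference was of about the same size in the libraries labelled C57BL/6 (-1.54) and BALB/c (-1.55) taken alone, where 2 mice were set against 2 and edgeR's FDR was 0.0519 and 0.257. Without the 5 libraries lacking lymphoid markers it was -1.21 (edgeR FDR 0.0466).

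Aurka encodes Aurora kinase A, which builds the spindle poles, and lies at chr2:172356190-172370535 on the minus strand (GRCm38). It was at 8.00, 10.5, 10.97 and 5.38 CPM in NOR and at 2.98, 4.03, 3.77 and 3.21 CPM in CAC. Again no CAC library reached a NOR library, and the CAC libraries were close to each other, CAC 3 included. The means were 8.71 ± 2.57 and 3.50 ± 0.487 CPM (SD, n = 4 each), a ratio of 0.402. The log2 fold change was -1.32 (SE 0.24, 95% interval -1.87 to -0.76, edgeR FDR 0.0125, exact permutation p = 0.0286). Without the 5 libraries lacking lymphoid markers it was -1.16 and no longer called (edgeR FDR 0.124).

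The fall of Ccnd1 went along with a lower sum of fibroblast markers, which was mainly a fall of collagen transcripts. The summed level of 5 fibroblast genes was 2280 to 2853 CPM in NOR and 801 to 1331 CPM in CAC, with none at 0, and the collagen gene Col1a1 fell by 3.61 on the log2 scale. The estimates of all 5 were lower in CAC, and Col1a1 and Col3a1 were called. Decorin (Dcn), another gene of the list, was at 920 to 1005 CPM in NOR and at 624 to 1049 CPM in CAC, so that its ranges overlapped. Fibroblasts are among the cells that express Ccnd1, and the part of these cells in its level was not tested.

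Tyms, the thymidylate synthase that makes the thymine nucleotide, was the only gene of the 37 that was higher in every CAC library than in every NOR library. It was at 1.73, 2.51, 2.26 and 2.285 CPM in NOR and at 2.935, 2.93, 4.85 and 3.70 CPM in CAC. The means were 2.20 ± 0.327 and 3.603 ± 0.904 CPM (SD, n = 4 each). The log2 fold change of 0.72 (SE 0.23) did not pass (edgeR FDR 0.0728). DESeq2, which called 13.2% of all genes, called it (0.71, adjusted p 0.0294), and so did edgeR with the lymphoid score as a covariate (0.83, FDR 0.0398). Groups without overlap were common here, since 12.3% of all genes were higher and 10.6% lower in every CAC library, against 1 and 2 of the 37 genes. At an unadjusted p under 0.05 stood 3 of the 37 genes (8.11%) and 29.1% of all genes.

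**Figure D4:**
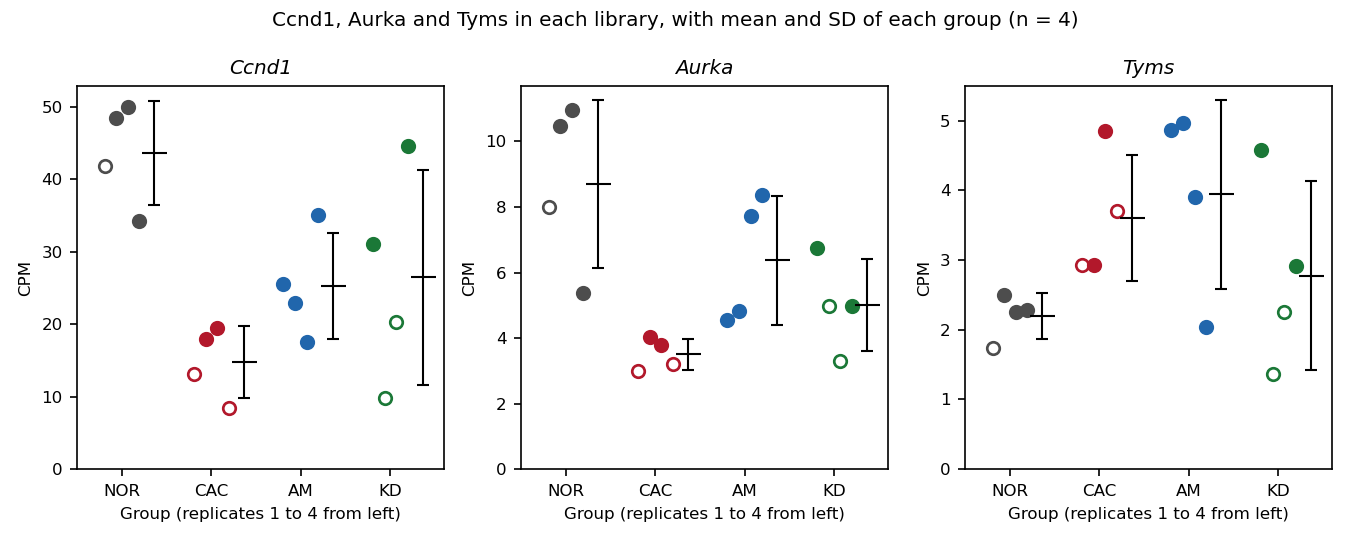
CPM of Ccnd1, Aurka and Tyms in each library, with replicates 1 to 4 of each group from left to right, open circles for the 5 libraries whose B and T cell markers were near 0, and the mean and SD of each group as bars (n = 4). Ccnd1 and Aurka in CAC lie wholly below NOR, with means of 14.7 against 43.6 CPM and 3.50 against 8.71 CPM.

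By role, the genes that were not called in CAC against NOR had estimates from -0.58 to 0.72 on the log2 scale. The 6 helicase genes ran from -0.25 (Mcm2) to 0.27 (Mcm4 and Mcm7), with 5 higher and a median of 0.12. The 3 genes of the fork and nucleotide supply were higher, by 0.10 (Pcna), 0.14 (Rrm2) and 0.72 (Tyms). Of the 6 genes of the cyclins and Cdk1, the called Ccnd1 included, 5 were lower, with a median of -0.17. Of the 6 mitotic kinases and their partners, the called Aurka included, 3 were higher. All 3 genes of the checkpoint and anaphase entry lay between 0.01 and 0.08. Cenpa, the centromere histone, and Cenpf, a kinetochore protein, were at -0.58 and -0.56, whereas the kinetochore motor Cenpe was at 0.32. For the spindle motors and midzone, 5 of 6 genes were lower, with a median of -0.32. Mki67 itself was at -0.02, with a 95% interval of -1.79 to 1.76 (edgeR FDR 0.993), an interval that holds differences of 3-fold in either direction.

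**Figure D5:**
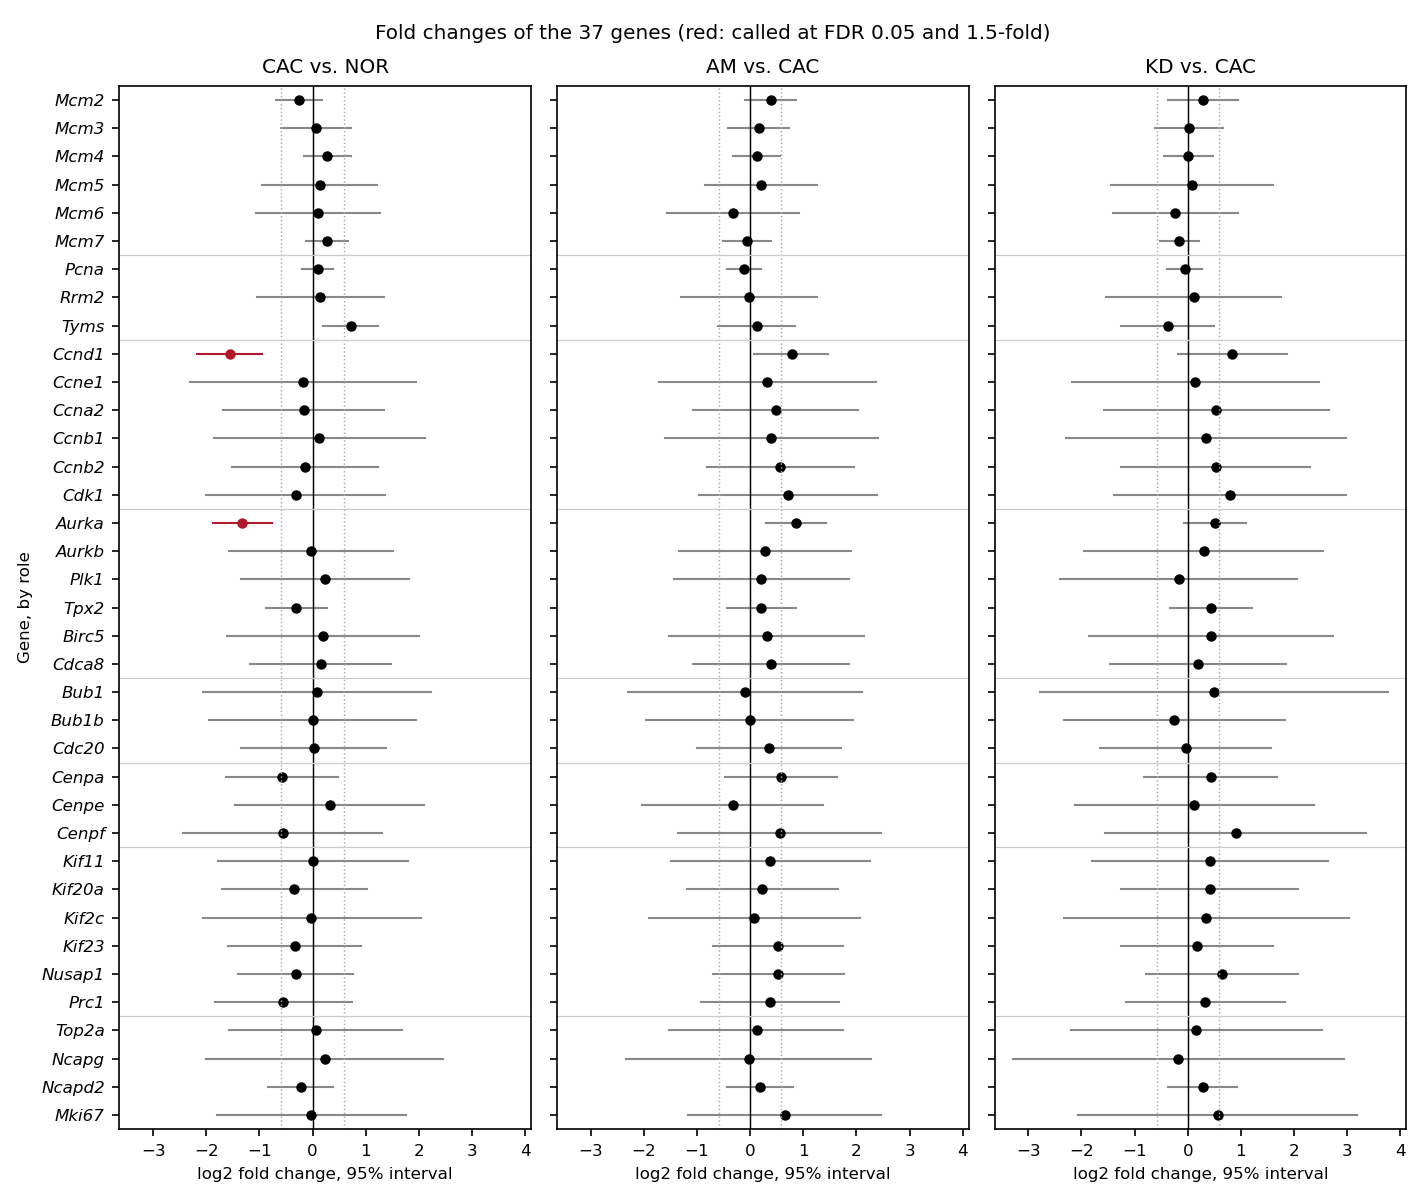
Log2 fold change (points) and 95% interval (lines) of the 37 genes, by role, in CAC against NOR, AM against CAC and KD against CAC, with called genes in red and dotted lines at 1.5-fold. Ccnd1 (-1.56) and Aurka (-1.32) in CAC against NOR are the only called genes, and the intervals of genes such as Mki67 (-1.79 to 1.76) are wide.

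The small estimates of most mitotic genes in CAC depended on 1 library as well as on the fit. CAC 3 was the highest CAC library for 36 of the 37 genes. Leaving it out thus lowers the CAC level of these genes by construction, and the share of all genes is not a like measure there. Without CAC 3, 9 of the 37 genes were called and all were lower in CAC, against 4.09% of all genes called lower in that fit. They were Ccnd1 (-1.73), Aurka (-1.35), Ccna2 (-1.41), Aurkb (-1.28), the kinase Plk1 (-1.09), the kinetochore gene Cenpf (-2.20), the motor Kif20a (-1.33), the midzone gene Prc1 (-1.45) and Top2a (-1.29). Mki67 was then at -1.52 (edgeR FDR 0.0514), and 34 of the 37 genes were lower, with a median of -1.13. The remaining CAC libraries were CAC 1, CAC 2 and CAC 4, of which the first and the last lacked lymphoid markers. Without the 5 libraries lacking these markers the direction turned, with 32 genes higher and 5 lower in CAC, a median of 0.46, and 1 gene called, Ccnd1, against 2.63% of all genes in either direction. In that fit CAC was represented by CAC 2 and CAC 3. With the lymphoid score as a covariate, 23 genes were higher and 14 lower, with a median of 0.14, and Ccnd1, Aurka and Tyms were called, against 11.4% of all genes in that fit.

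In the lists of further cell cycle genes few members were called in CAC against NOR, beside the 9.45% of all genes. None of 34 other DNA replication genes was called by edgeR, and 5 (14.7%) had an unadjusted p under 0.05, against 29.1% of all genes. Of 42 tested among 45 other mitosis genes, 1 was called. This was Ube2c, the ubiquitin-conjugating enzyme of the anaphase-promoting complex, at 45.6, 43.6, 43.5 and 33.0 CPM in NOR and at 31.25, 30.0, 18.8 and 21.0 CPM in CAC. Every CAC library was below every NOR library, and the log2 fold change was -0.72 (edgeR FDR 0.0381). It was no longer called when NOR 1, NOR 2, NOR 3, CAC 3 or CAC 4 was left out (-0.71 to -0.59, edgeR FDR up to 0.0954), nor without the 5 libraries lacking lymphoid markers (-0.69, edgeR FDR 0.154), in C57BL/6 (-0.54) or BALB/c (-0.91) alone, or in the fits for Nnt (-0.64 each). Of 18 further cyclins, kinases and E2F or MuvB factors, Rb1, the retinoblastoma protein that holds back E2F, rose by 0.66 on the log2 scale (edgeR FDR 0.0145), from 19.1 to 20.8 CPM in NOR to 24.5 to 36.6 CPM in CAC, and lost its call without NOR 3 (0.64, edgeR FDR 0.0517), without the 5 libraries lacking lymphoid markers (0.56, edgeR FDR 0.1205) and in C57BL/6 (0.52, edgeR FDR 0.167) or BALB/c alone (0.82, edgeR FDR 0.137). Of 7 CDK inhibitors, Cdkn1a, which encodes p21, rose by 2.93 on the log2 scale (edgeR FDR 0.00543), from 10.9 to 17.1 CPM in NOR to 47.5 to 198 CPM in CAC. In the labelled strains taken alone it was at 1.92 in C57BL/6 (edgeR FDR 0.0538) and 3.71 in BALB/c (edgeR FDR 0.0854) and was no longer called, with 2 mice against 2. The neutrophil markers (98.4 to 227 CPM in CAC against 6.22 to 25.55 CPM in NOR, summed over 7 genes) were higher in the CAC libraries. Alas2, the heme synthesis enzyme of red cell precursors, rose by 2.59 on the log2 scale (edgeR FDR 0.00214), but of the 4 erythroid precursor genes tested 2 had higher and 2 lower estimates. The part of these cells in the levels of the cell cycle genes was not tested.

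The next comparison asked whether amiloride changed these genes in tumor-bearing mice. None of the 37 genes was called in AM against CAC by edgeR, while 3.66% of all genes were, and 2 of the 37 had an unadjusted p under 0.05, against 21.7% of all genes. Limma-voom called 0 of the 37 and DESeq2 called 1, Aurka, against 7.67% of all genes in DESeq2. The estimates were higher in AM for 29 genes and lower for 8, with a median of 0.27, against 0.01 over all genes. The median was 0.72 with the replicate number as a block and 0.76 in limma-voom.

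Aurka was at 4.56, 4.83, 7.72 and 8.37 CPM in AM 1 to 4. All AM libraries were above all CAC libraries, which reached 4.03 CPM, as was the case for 6.19% of all genes, and no other gene of the 37 was set apart in this way. The mean was 6.37 ± 1.955 CPM (SD, n = 4), 1.82 times that in CAC. The log2 fold change of 0.86 (SE 0.25) did not pass (edgeR FDR 0.0862), whereas DESeq2 gave 0.88 with an adjusted p of 0.0153. Ccnd1 was at 25.5, 22.9, 17.6 and 35.1 CPM in AM, with 3 of 4 libraries above all CAC libraries. Its mean of 25.3 ± 7.335 CPM (SD, n = 4) was 1.71 times that in CAC, and the log2 fold change was 0.78 (SE 0.31, edgeR FDR 0.185). It was 0.41 with the lymphoid score as a covariate and 0.42 without the 5 libraries lacking lymphoid markers. The AM mean lay between the CAC and the NOR mean, with AM 3 inside the CAC range and AM 4 inside the NOR range, and the fibroblast marker sum was 1837 to 2541 CPM in AM. Tyms was at 4.87, 4.97, 3.90 and 2.04 CPM in AM, within and around the CAC range, and the log2 fold change was 0.13.

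The mitotic genes had wide intervals in this comparison too, with 0.65 for Mki67 (edgeR FDR 0.698), 0.72 for Cdk1, 0.48 for Ccna2 and 0.12 for Top2a. Without CAC 3, all 37 genes were higher in AM, with a median of 1.24, and Ccna2 was called (1.74, edgeR FDR 0.0423), against 0.843% of all genes called higher in that fit. Mki67 was then at 2.17 (edgeR FDR 0.0510). CAC 3 was the highest CAC library for 36 of the 37 genes, so leaving it out raises AM against CAC for these genes by construction. All AM libraries held lymphoid markers, whereas CAC 1 and CAC 4 did not, and without the libraries lacking them 5 genes were higher and 32 lower in AM, with a median of -0.20. In that fit CAC was represented by CAC 2 and CAC 3 alone, so CAC 3 weighed more in it. With a lymphoid marker score as a covariate the split was 17 higher and 20 lower, with a median of -0.01. In the labelled strains taken alone, all 37 genes were higher in AM in C57BL/6 (median 1.19), and 29 were lower in BALB/c (median -0.25), with CAC 3 among the BALB/c libraries. Of the further cell cycle lists, Cdk2, the partner of cyclins E and A, was the only gene called, at 9.23 to 11.4 CPM in AM against 5.595 to 7.64 CPM in CAC (log2 fold change 0.62, edgeR FDR 0.0490). Leaving out any of these libraries but CAC 3 ended this call (0.54 to 0.67, edgeR FDR up to 0.120), and so did most other alternatives, among them the replicate block (0.63, edgeR FDR 0.202), the lymphoid score (0.52, edgeR FDR 0.112) and total-count scaling (0.55, edgeR FDR 0.137).

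The comparison of KD with CAC asked the same of tumors that release fewer exosomes. None of the 37 genes was called by edgeR, limma-voom or DESeq2, and none had an unadjusted p under 0.05, against 11.1% of all genes. The background was low as well, with 0.00685% of genes called by edgeR, which is 1 gene, although DESeq2 called 2.43%. The estimates were higher in KD for 29 genes and lower for 8, with a median of 0.28, against 0.00 over all genes. Ccnd1 was at 31.03, 9.78, 20.3 and 44.6 CPM in KD, with KD 2 inside the CAC range and the other 3 above it. The fibroblast marker sum was 2816, 932, 704 and 3077 CPM in KD 1 to 4, so that KD 3, with the lowest sum of all libraries, held more Ccnd1 than any CAC library. The log2 fold change was 0.84 (SE 0.45, edgeR FDR 0.536). Aurka was at 6.745, 4.97, 3.31 and 4.97 CPM, and its log2 fold change was 0.51 (SE 0.26, edgeR FDR 0.509). Tyms was at 4.57, 1.37, 2.25 and 2.92 CPM, which gave -0.38.

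For Mki67 the log2 fold change in KD against CAC was 0.56 with an interval from -2.07 to 3.18, so that a large difference in either direction was not detectable. Here the KD libraries fell into KD 1 and KD 4 with lymphoid markers and high Mki67 (30.0 and 16.1 CPM) and KD 2 and KD 3 without them and with low Mki67 (1.71 and 1.06 CPM). Without KD 1 the split was 11 higher and 26 lower, with a median of -0.18. Without CAC 3, the highest CAC library for most of the genes, it was 36 higher and 1 lower, with a median of 1.10. Without the 5 libraries lacking lymphoid markers it was 27 higher and 10 lower (median 0.31), and with the lymphoid score 29 higher and 8 lower (median 0.22), with no gene called in either fit. The fit without the 5 libraries set KD 1 and KD 4 against CAC 2 and CAC 3.

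Against the NOR mice, neither treated group had any called gene in edgeR, among the 37 or among all genes (0%). In AM against NOR, 3 of the 37 had an unadjusted p under 0.05, against 9.19% of all genes, and DESeq2 and limma-voom called 0 of the 37. Over all genes DESeq2 called 0.476% in AM against NOR and 0.211% in KD against NOR. The 3 genes were Tyms (0.86), the helicase gene Mcm4 (0.41) and Ccnd1 (-0.78, edgeR FDR 0.518). The estimates were higher in AM for 27 genes and lower for 10, with a median of 0.20. In KD against NOR only Aurka had an unadjusted p under 0.05 (log2 fold change -0.80), against 3.54% of all genes, and Ccnd1 was at -0.72 (SE 0.40). There the estimates were higher in KD for 28 genes and lower for 9, with a median of 0.20, but this direction turned with the replicate number as a block (11 higher and 26 lower, median -0.21) and in limma-voom (9 and 28, median -0.19). Without the 5 libraries the medians against NOR were 0.03 in AM and 0.68 in KD, and with the lymphoid score 0.17 and 0.36, again with no gene of the 37 called. All these comparisons share the NOR or the CAC libraries, so their values are not independent of each other.

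A difference between the labelled strains in the effect of the condition (their interaction) was not detected for any of the 37 genes or any other gene in the 3 comparisons CAC against NOR, AM against CAC and KD against CAC. At an unadjusted p under 0.05 edgeR gave 0, 2 and 0 of the 37 genes. Over all genes it gave 717 of 14666, 1821 of 14674 and 825 of 14593. Limma-voom gave 0 at the FDR limit. The lowest adjusted p among the 37 was 0.360, in AM against CAC. The labelled strain itself, over the 16 libraries with the group as a covariate, called 0 of 15220 genes by edgeR and by limma-voom, with 248 at an unadjusted p under 0.05. Nnt did not follow the labelled strain, and no gene passed the limit for the label itself. The strain labels may thus be wrong, and in how many libraries was not tested. Every fit by strain, the interaction included, rests on the labels as given, and its strain names are those of the labels.

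Some counts of the 37 genes can hold reads of other genes. The exons of Ccnd1 overlap those of Oraov1 on the other strand over 1100 of 4709 bases (23.4%), and the strand setting of the counting is not given in the sources used here. Oraov1 itself was at 9.88 to 16.1 CPM and its log2 fold change in CAC against NOR was -0.23 (edgeR FDR 0.271). Kif20a overlaps Cdc23 over 29.3% of its exon bases, Ncapg overlaps Lcorl over 13.4%, Ccna2 overlaps Exosc9 over 12.5% and Prc1 overlaps Rccd1 over 11.1%. Aurka had no overlap and shared 0.274% of its 31-base words with other genes. Words shared with other genes were most common in Mcm7 (33.4%), Ccnb1 (27.8%), Cdc20 and Kif20a (both 26.7%), Pcna (23.3%) and Ccnd1 (22.3%), whose levels are therefore less certain.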

How the data were processed

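Poly(A) RNA of gastrocnemius from 16 mice was measured. The deposited table holds whole-number counts per gene, not normalized, and FPKM that the authors computed from them. The submitters' processing notes name fastp, Bowtie2, HISAT2, StringTie 1.3.1 and the builds mm9 and GRCm38 without their roles, and the strand setting is not given in the sources used here. Columns were mapped by name, and 0 other columns of per-sample values were present. Totals were 35913190 to 61032708 counts, and the chi-square per degree of freedom between libraries of a group was at least 69.27, so each library counted as 1 replicate.

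Counts of the 8 libraries of each pair of groups were fitted with edgeR 4.0.16 in R 4.3.3 (TMM scaling; filterByExpr with minima of 10 counts and 15 in total; quasi-likelihood F test). Genes were called at a Benjamini-Hochberg FDR of at most 0.05 over all genes tested and a 1.5-fold change. NOISeq, the tool of the study, was not installed. Log2 CPM used a prior count of 2. For single genes an exact permutation test of CPM, two-sided, was added. The test was also run on simulated counts, with changes larger than the 1.5-fold limit and no shifts shared between genes. That run does not bear on the calls in these data. Alternatives were DESeq2 1.42.0, limma-voom (limma 3.58.1), scaling by RLE, by the upper quartile or by total counts, other count filters, all 16 libraries in 1 fit, the labelled strain, the replicate number or a lymphoid score as a covariate, each labelled strain alone, and leaving out each library. Leaving out the 5 libraries lacking lymphoid markers (B cell sum under 10 CPM), leaving out the 4 with Nnt over 40 CPM, and Nnt as a covariate were chosen after seeing the data. The 37 genes, the cell cycle lists and the marker lists were chosen with earlier results of these data known. Values in every library were to be given for called genes of the 37 and for Mki67, Top2a, Cdk1, Ccnb1, Ccna2, Ccnd1, Mcm2, Mcm5, Pcna and Rrm2. Called genes of the other cell cycle lists were to be named. Tyms, Nnt, Cd3e, Ckm, the collagen genes, the extremes of a range and the members called without CAC 3 were named after their values were seen.

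Promoters were read from RefSeq windows on GRCm38.p6 and positions from GENCODE M21 (GRCm38), in Python 3.11.15 (numpy 2.4.6, matplotlib 3.10.9). Exons and 31-base words were compared between genes. The interval level was 95%.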

Additional observations from a re-analysis of the deposited data

Results flagged for a closer look

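Over the 37 genes and 4 groups, 148 sets of 4 libraries were examined for a library far from the other 3 (Dixon's criterion at the 95% level), and 12 met it. Chance gives about 1 in 20. In NOR 1, which lacks lymphoid markers, 5 genes were far below the other NOR libraries, namely Mcm5 (4.01 CPM), Mcm6 (9.42 CPM), Pcna (36.45 CPM), the G1/S cyclin Ccne1 (0.259 CPM) and the passenger protein Birc5 (0.492 CPM). Bub1 was far below in NOR 3 (0.262 CPM). In CAC 3, 5 genes were far above the other CAC libraries, namely Mcm5 (18.9 CPM), Ccna2 (6.94 CPM), Aurkb (3.96 CPM), the kinetochore motor Cenpe (3.22 CPM) and Prc1 (3.755 CPM). Mcm2 was far above in AM 1 (24.0 CPM).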

How the results depend on the processing

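Ccnd1 and Aurka kept their direction under every alternative run in all 5 comparisons, whereas 30 of the 37 genes changed sign under at least 1 alternative in CAC against NOR, 33 in AM against CAC, 33 in KD against CAC, 22 in AM against NOR and 33 in KD against NOR. In CAC against NOR, 2 genes were called, and 0 with the libraries labelled C57BL/6 alone, 0 with those labelled BALB/c alone and 1 without the 5 libraries lacking lymphoid markers, fits with fewer mice. Over all genes the strain fits called 247 and 0, and Aurka was at -1.40 and -1.20 there. DESeq2 and the lymphoid score each gave 3, with Tyms added, against 13.2% and 11.4% of all genes. Leaving out 1 library each gave 2 to 9 called genes, 9 of them without CAC 3. Ccnd1 then ran from -1.73 to -1.37 and Aurka from -1.49 to -1.19. In AM against CAC, 0 genes were called, 1 by DESeq2 (Aurka), and 0 to 1 when 1 library was left out. Ube2c lost its call in 5 of the fits without 1 library, and Cdk2 in AM against CAC in 7.

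Groups share replicate numbers. Same-numbered libraries correlated in their deviations at -0.19 to 0.60 in CAC against NOR (3 of 4 pairs over 0.1), -0.45 to 0.05 in AM against CAC, -0.64 to -0.25 in KD against CAC, -0.40 to -0.10 in AM against NOR and -0.58 to 0.42 in KD against NOR, so not every pair deviated together and the libraries were taken to share only a number. The replicate number as a block (replicate block) left 2, 0, 0, 0 and 0 genes called in the 5 comparisons and changed no call of the 37. The replicate block moved the median of the 37 genes to -0.56 in CAC against NOR and -0.21 in KD against NOR, and limma-voom moved it to -0.58 and -0.19. Total-count scaling moved the median of all genes in CAC against NOR to 0.14.

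Genes not called changed direction as follows, and the cause was not tested. In CAC against NOR, Ccna2 was at 0.05 with total counts, 0.58 in BALB/c, 0.46 without the 5 libraries, and 0.07 both without the 4 libraries with high Nnt and with Nnt as a covariate (-1.41 to 0.11 without 1 library), and Mki67 at 0.20, 0.67, 0.56, 0.27 and 0.27, with 0.09 under the lymphoid score (-1.52 to 0.31 without 1 library). In AM against CAC, Tyms was at -0.01 with the lymphoid score, -0.56 in BALB/c and -0.06 without the high-Nnt libraries, Ccna2 at -0.02 in BALB/c and -0.19 without the 5 libraries, and Mki67 at -0.11 without the 5 and -0.02 without the high-Nnt libraries. In KD against CAC, Tyms was at 0.05 in C57BL/6, Ccna2 at -0.50 in BALB/c and -0.43 without the high-Nnt libraries (-0.17 to 1.78 without 1 library), and Mki67 at -0.68 and -0.72 (-0.41 to 2.04). In KD against NOR, Tyms was at -0.01 without the high-Nnt libraries and with Nnt as a covariate (-0.01 to 0.56 without 1 library). Depth limits genes such as Bub1, with a median of 14.5 counts.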

Other observations

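Among the further mitosis genes, Pttg1, which encodes securin, the inhibitor of the protease that parts sister chromatids, was low in the same 4 libraries that held high Nnt. It was at 1.12 CPM in CAC 4, 1.55 CPM in AM 1, 4.79 CPM in AM 3 and 1.88 CPM in KD 1, and at 31.6 to 59.8 CPM in the other 12. Pttg1 was named after its values were seen. No such separation was seen for Mcm6 or Bub1b of the 37 genes. Mcm6 was at 3.37, 10.7, 7.51 and 10.9 CPM in these libraries and at 9.42 CPM in NOR 1 and 9.73 CPM in KD 3. Bub1b was at 0.190 CPM in CAC 4, its lowest level, but at 1.95, 3.10 and 4.38 CPM in AM 1, AM 3 and KD 1, within the range of the others. The libraries do not follow the labelled strain, and no comparison of them was tested.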
